A study of Mus musculus with 16 samples.

Results

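The response of footpad epidermis to papain was compared between mice fed on a diet poor in ligands of the aryl hydrocarbon receptor (AhR) and mice fed on the same diet with indole-3-carbinol (I3C). What is described is the interaction of diet and treatment: the log2 change with papain on the AhR-poor diet minus the log2 change with papain on the I3C diet. A value of 1 means that the ratio of papain to vehicle was 2-fold larger on the AhR-poor diet, whether the gene rose more, fell less, or rose on that diet and fell on the other. The 16 libraries of the count table all entered, 4 for each combination of diet and treatment, assigned by the diet and treatment in their titles. Of 50600 genes, 22155 had at least 10 counts in total and were tested.

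All mice were C57/B6J females bought from Charles River, without any transgene or deletion. From 5 wk of age they were given purified AIN-93M food, labelled SYNTH and called the AhR-poor diet here, or that food with 200 ppm of I3C, for 3 wk before the experiment. The footpad then received 50 μl of PBS alone (vehicle, labelled PBS) or with 50 μg of papain, and epidermal cells were taken 6 hr later. The epidermis was parted from the dermis with dispase and dead cells were removed, so each library is a mixture of all the cell types left in the sheet. From flow cytometry, the paper reports that most of these cells were keratinocytes, taken as the CD45-negative cells, and that part were not viable. In such bulk samples, fewer cells of a type and less RNA per cell cannot be told apart. Mice on 1 diet shared a cage, so that diet and cage cannot be told apart, and the sequencing unit of each library was not given in the sources used here. Library totals ranged from 22500821 to 51844375 counts. Levels are given as CPM, counts relative to the TMM-scaled library total, and compare libraries for 1 gene, not genes with each other.

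AhR is a receptor that, once bound by small molecules from food, microbes or pollutants, enters the nucleus. There it pairs with its partner ARNT and switches on genes such as Cyp1a1. I3C, a compound of cruciferous vegetables, is turned in the stomach into AhR ligands. Papain is a plant cysteine protease that acts as an allergen in skin, where it cleaves proteins of the barrier and sets off the release of cytokines and chemokines by keratinocytes.

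Few genes passed the test of the interaction, and nearly all of them had the larger ratio on the AhR-poor diet. At the thresholds of the study (adjusted p below 0.01 and a log2 difference beyond 1), the response of 4 genes was larger on the AhR-poor diet, which is 0.0181% of the genes tested, and that of 0 genes was smaller (0%). The 4 were Efemp1, Sulf1, Akap12 and Glul. At an adjusted p below 0.05 with no minimum size, 69 genes were higher (0.311%) and 4 were lower (0.0181%). All p-values are from edgeR's quasi-likelihood test with Benjamini-Hochberg adjustment over the 22155 genes, and measure the spread between the libraries of these mice. At an unadjusted p below 0.05, 1642 genes were higher and 1345 lower, 13.5% of those tested. Among the 13026 genes with a mean of at least 1 CPM this balance was reversed, with 1051 higher and 1178 lower, and it was 942 and 1178 among the 13146 genes that reached 10 counts in each library.

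The median log2 difference over all genes tested was 0.03 (quartiles -0.21 and 0.44), with 53.1% of genes above 0. Of the 13026 genes with a mean of at least 1 CPM, 47.5% were above 0, with a median of -0.02. The 95% interval of the difference lay within -1 and 1 for 10505 of these 13026 genes (80.6%), and for 48.7% of all genes tested. For most genes at or above 1 CPM the interval thus held no difference beyond 2-fold, which held for few of those below. The median standard error was 0.14 in genes of 10 to 100 CPM and 0.66 in genes of 0.1 to 1 CPM. In 4816 genes (21.7%), a whole group had 3 counts or fewer in every library, so that their log2 differences are no measured ratio. Of the 73 genes that passed, 3 were of this kind.

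**Figure D1:**
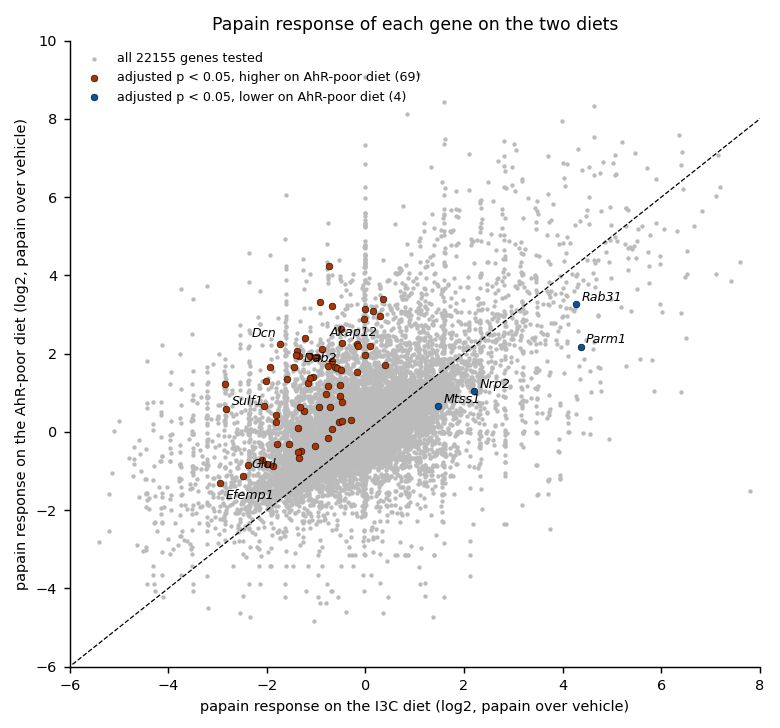
Log2 change with papain on the I3C diet (x axis) and on the AhR-poor diet (y axis) for each gene tested, with the line of equal response dashed; red points are the 69 genes with a higher and blue points the 4 genes with a lower papain response on the AhR-poor diet at an adjusted p below 0.05. The red points lie above the line, most of them left of 0 on the x axis, and the blue points lie below it at the upper right, where papain raised the gene on both diets; 3 genes fall outside the axes.

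The number of genes called depended strongly on the libraries and on the tool. When each library was left out in turn, between 2 and 95 genes were higher at the study's thresholds, and between 10 and 350 at an adjusted p below 0.05. The lowest of these came without the I3C vehicle library T108 (10 higher and 0 lower), and the highest without the I3C papain library T106 (350 and 72) or the AhR-poor papain library T112 (328 and 18). The Wald test of DESeq2 called 202 genes higher and 5 lower at the study's thresholds, and limma-voom called 2 and 0. All 73 genes kept their sign in each of these fits. They also had the same sign when the difference was taken in CPM rather than as a ratio. For the 51 genes with estimates above 0 on the AhR-poor diet and below 0 on the I3C diet, this largely follows from those signs. The 73 genes were selected on these same libraries, so the kept signs are not further support for them.

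**Figure D2:**
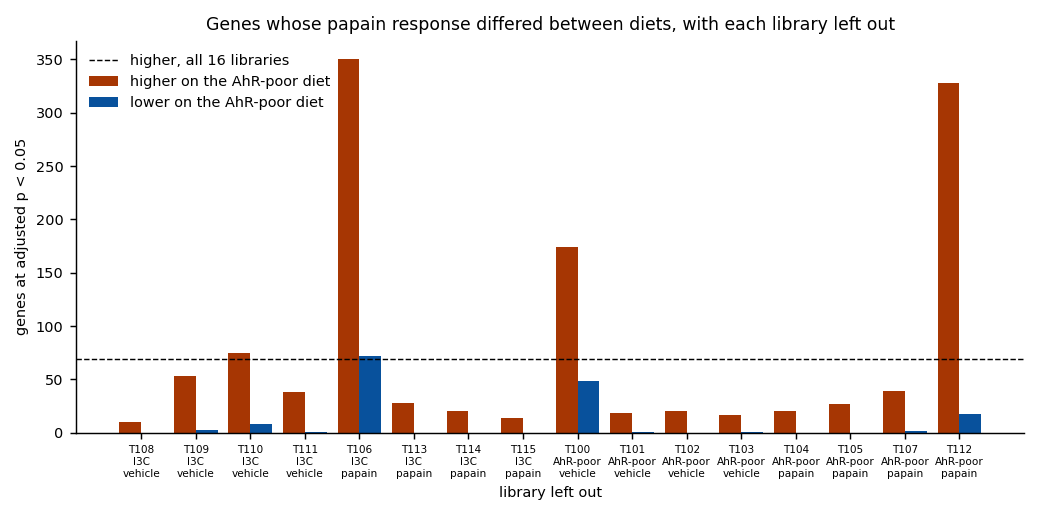
Number of genes at an adjusted p below 0.05 (y axis) when the library named on the x axis was left out, split by the direction of the difference; the dashed line marks the 69 genes higher with all 16 libraries. Leaving out T106, T112 or T100 raised the number to 350, 328 and 174, and leaving out T108 lowered it to 10.

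Of the 4 genes past the study's thresholds, Efemp1 and Glul fell on both diets and fell less on the AhR-poor diet, whereas Sulf1 and Akap12 fell on the I3C diet only. The bases upstream of Efemp1 and Glul are shown because AhR with ARNT binds DNA at the core GCGTG. The second motif, TGANTCA, is a loosened form of the site of AP-1, the Fos and Jun dimers of stressed epidermis. Any base was allowed in its middle. Printed are the 250 bases before the start in RefSeq (build GRCm38.p6), 5′ to 3′ on the plus strand, with matches to either motif on either strand in capitals. Efemp1 is shown for chr11:28852955-28853204 and Glul for chr1:153899679-153899928, and 2 of the 4 genes had an entry.

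Efemp1: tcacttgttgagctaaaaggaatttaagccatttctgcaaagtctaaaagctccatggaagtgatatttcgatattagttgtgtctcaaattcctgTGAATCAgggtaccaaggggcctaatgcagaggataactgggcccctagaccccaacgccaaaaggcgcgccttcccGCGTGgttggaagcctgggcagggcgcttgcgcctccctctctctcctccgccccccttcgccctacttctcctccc
Glul: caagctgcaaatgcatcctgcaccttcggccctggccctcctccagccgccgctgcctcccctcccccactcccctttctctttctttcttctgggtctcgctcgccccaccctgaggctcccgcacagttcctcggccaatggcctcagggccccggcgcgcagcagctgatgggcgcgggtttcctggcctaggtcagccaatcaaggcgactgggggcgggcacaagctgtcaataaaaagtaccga

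The Efemp1 window held 1 GCGTG, beginning 77 bases before the start, and 1 TGANTCA, as TGAATCA, beginning 154 bases before it. The Glul window held neither. Over all 32851 windows of this length, 28.2% held a GCGTG and 6.75% a TGANTCA, and the 2 motifs do not overlap each other in the Efemp1 window. These are matches of letters, and binding was not measured.

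Efemp1 (chr11:28853204-28926743, GRCm38, GENCODE M21) encodes fibulin-3, a glycoprotein of elastic fibres and basement membranes. With vehicle it was at 41.2, 34.1, 29.5 and 39.4 CPM in the I3C libraries and at 34.2, 34.3, 26.8 and 31.8 CPM in the AhR-poor libraries. With papain it was at 4.73, 3.88, 4.62 and 5.35 CPM on the I3C diet and at 12.1, 16.03, 12.9 and 10.3 CPM on the AhR-poor diet. The vehicle libraries of the diets overlapped, and each AhR-poor papain library lay above each I3C papain library. Efemp1 thus fell 7.74-fold on the I3C diet and 2.47-fold on the AhR-poor diet, a log2 difference of 1.65 ± 0.19 (SE, n = 4 libraries a group, adjusted p = 0.00127 in edgeR). It passed the study's thresholds in all 16 fits that left out a library.

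Glul (chr1:153899944-153909723) encodes glutamine synthetase, which makes glutamine from glutamate and ammonia. Its vehicle levels were 242.7, 219.7, 194.9 and 243.3 CPM on the I3C diet and 175.7, 180.7, 172.1 and 133.0 CPM on the AhR-poor diet. Its papain levels were 52.8, 36.6, 35.4 and 35.6 CPM on the I3C diet and 77.1, 82.2, 81.1 and 64.2 CPM on the AhR-poor diet. The order of the diets was opposite in the treatments: the I3C libraries were the higher with vehicle and the lower with papain, without overlap in either. Glul fell 5.61-fold on the I3C diet and 2.17-fold on the AhR-poor diet, a log2 difference of 1.37 ± 0.18 (adjusted p = 0.00439 in edgeR). It kept an adjusted p below 0.05 in all 16 fits without a library, and an adjusted p below 0.01 in 5 of them.

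The estimates for Sulf1 and Akap12 had opposite signs on the diets. Sulf1 (chr1:12692277-12861192) encodes an enzyme that removes sulfate groups from heparan sulfate outside the cell and so alters how growth factors bind there. It was at 5.83, 4.21, 4.33 and 2.43 CPM in the I3C vehicle and 0.633, 0.738, 0.485 and 0.522 CPM in the I3C papain libraries, and at 4.33, 3.97, 3.76 and 5.58 CPM in the AhR-poor vehicle and 6.92, 9.37, 6.75 and 3.43 CPM in the AhR-poor papain libraries. Every I3C papain library lay far below the other 12, whereas the AhR-poor papain libraries overlapped their vehicle group. Sulf1 fell 7.06-fold on the I3C diet, and its 1.504-fold difference on the AhR-poor diet did not pass the test (adjusted p = 0.0961 in edgeR). The log2 difference of 3.41 ± 0.41 passed the study's thresholds (adjusted p = 0.00127), also in all 16 fits without a library. It did not pass them with limma-voom, at an adjusted p of 0.0343.

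Akap12 (chr10:4266380-4359470) encodes a scaffold that holds protein kinase A near the cell membrane. It was at 0.890, 0.663, 0.680 and 0.690 CPM in the I3C vehicle and 0.414, 0.481, 0.342 and 0.348 CPM in the I3C papain libraries. On the AhR-poor diet it was at 1.74, 1.06, 1.19 and 1.13 CPM with vehicle and at 6.77, 7.82, 4.46 and 3.21 CPM with papain. The 4 groups did not overlap, and the AhR-poor libraries were the higher with either treatment. Akap12 rose 4.37-fold on the AhR-poor diet and fell 1.84-fold on the I3C diet, a log2 difference of 3.01 ± 0.40 (adjusted p = 0.00305 in edgeR). Its adjusted p stayed below 0.01 in 10 of the 16 fits without a library, below 0.05 in all 16, and was 0.0505 with limma-voom.

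**Figure D3:**
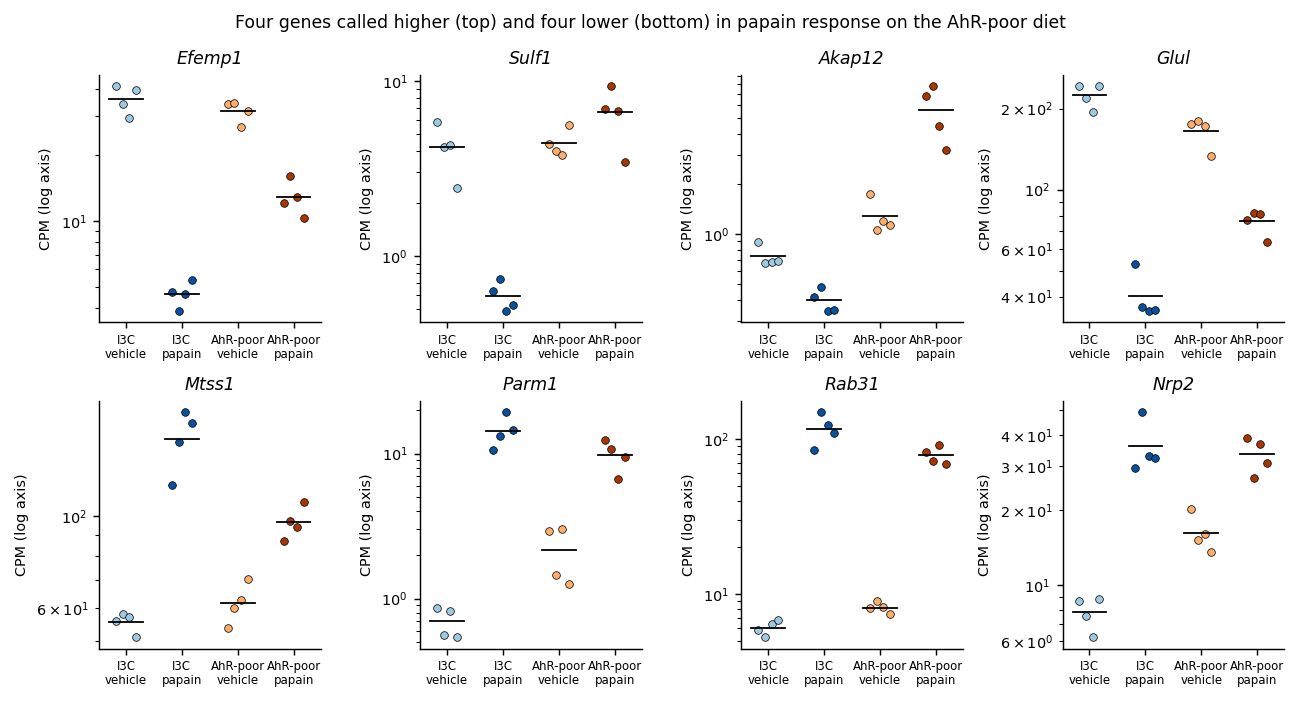
CPM in each library (points, log axis) and the group mean (bar) for the 4 genes called at the study's thresholds (top row) and the 4 genes with a lower papain response on the AhR-poor diet at an adjusted p below 0.05 (bottom row). In the top row the AhR-poor papain libraries lie above all I3C papain libraries, and in the bottom row every papain library lies above the vehicle libraries of its diet.

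The 69 genes with a higher papain response on the AhR-poor diet had log2 differences from 0.60 to 4.97, with a median of 2.23. They fell into 4 patterns by the papain test on each diet at an adjusted p below 0.05, which called 17.7% of all genes tested as risen and 15.7% as fallen on the AhR-poor diet, and 16.9% and 18.4% on the I3C diet. In 20 genes papain raised the gene on the AhR-poor diet and lowered it on the I3C diet, in 27 it raised the gene on the AhR-poor diet and did not pass on the I3C diet, in 12 it lowered the gene on the I3C diet and did not pass on the AhR-poor diet, and in 10 it lowered the gene on both. Among all genes tested, 37 (0.167%) rose on the AhR-poor diet and fell on the I3C diet, and 0 did the reverse. The 4 genes with a lower difference rose on both diets. The difference of the responses is fixed by these same libraries, so the patterns describe the 73 genes and are not further support for them.

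Within the 73 genes, the diets were apart mostly with papain. In all 69 genes each AhR-poor papain library lay above each I3C papain library. Counted in either direction, the papain libraries of the diets did not overlap in 70 of the 73 genes, against 24.9% of all genes tested. The vehicle libraries did not overlap in 25 of the 73, against 8.12%. The 73 genes were selected on these same libraries, so both counts describe the selection and are not further support for it. In 20 of the 69 genes the AhR-poor vehicle libraries were already above all I3C vehicle libraries, and in 2 they were below. Most of the 73 genes were weakly measured: 47 had a mean below 10 CPM and 5 a mean of 100 CPM or more.

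Apart from the 4 genes above, 6 genes passed an adjusted p below 0.05 in all 16 fits without a library. With limma-voom, Col6a1 and Ltbp4 passed as well, and Dab2, Cygb, Hmcn2 and Medag did not (adjusted p from 0.0527 to 0.077). Col6a1, a chain of the collagen VI microfibrils around cells, fell 4.28-fold on the I3C diet and 1.65-fold on the AhR-poor diet (log2 difference 1.37 ± 0.20, adjusted p = 0.0102 in edgeR). It was at 63.0 to 85.8 CPM in the I3C vehicle and 60.7 to 72.2 CPM in the AhR-poor vehicle libraries, and at 13.0 to 21.3 and 31.7 to 48.4 CPM in the respective papain libraries. Its vehicle groups overlapped and its papain groups did not. Ltbp4, which binds latent TGF-beta in the matrix, fell 2.47-fold on the I3C diet and 1.39-fold on the AhR-poor diet, from 226.3 to 319.3 CPM with vehicle to 107.6 to 116.4 CPM with papain on the first and from 258.9 to 300.5 to 176.7 to 217.4 CPM on the second (log2 difference 0.83 ± 0.13, adjusted p = 0.0128).

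The other 4 of these genes were low and rose on the AhR-poor diet. Dab2, an adaptor for clathrin-mediated endocytosis, went from 2.58 to 4.36 CPM with vehicle to 7.81 to 20.8 CPM with papain on that diet, and from 0.540 to 1.17 to 0.124 to 0.560 CPM on the I3C diet. Cygb, the oxygen-binding protein cytoglobin, went from 2.18 to 4.22 to 4.35 to 9.37 CPM on the AhR-poor diet and from 0.739 to 1.22 to 0.448 to 0.571 CPM on the I3C diet. Both genes rose on the AhR-poor diet and fell on the I3C diet, and both were already higher in the AhR-poor vehicle libraries, without overlap. Hmcn2, the matrix protein hemicentin-2, had a log2 difference of 2.42 ± 0.38 and Medag, a gene linked to fat cell formation, of 2.75 ± 0.44 (adjusted p = 0.0128 for each in edgeR). Hmcn2 had the same pattern as Dab2 and Cygb, with a 2.38-fold rise on the AhR-poor diet and a 2.25-fold fall on the I3C diet. Its vehicle libraries were at 1.244 to 1.825 CPM on the AhR-poor diet and 0.810 to 1.198 CPM on the I3C diet. Papain raised Medag 4.81-fold on the AhR-poor diet, and its 1.40-fold lower mean on the I3C diet did not pass the test. Medag shares 36.7% of its exonic bases with the gene model Gm20488 on the same strand, so their reads may not be separable.

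The 4 genes with the smaller ratio on the AhR-poor diet rose on both diets. Mtss1, which bends membranes and binds actin, went from 50.9 to 57.9 CPM to 118.6 to 178.1 CPM on the I3C diet and from 53.7 to 70.4 to 87.2 to 108.1 CPM on the AhR-poor diet. This was a 2.77-fold against a 1.57-fold rise (log2 difference -0.82 ± 0.15, adjusted p = 0.0287 in edgeR), and Mtss1 was the only 1 of the 4 whose papain libraries did not overlap between the diets. Parm1, a mucin-like membrane protein, rose 20.6-fold on the I3C diet and 4.53-fold on the AhR-poor diet (log2 difference -2.19 ± 0.41, adjusted p = 0.0336). Its papain libraries overlapped, at 10.5 to 19.3 and 6.71 to 12.4 CPM, and its vehicle libraries did not, at 0.540 to 0.862 and 1.26 to 3.02 CPM.

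Rab31, a GTPase of vesicle transport, rose 19.3-fold on the I3C diet and 9.61-fold on the AhR-poor diet (log2 difference -1.003 ± 0.20, adjusted p = 0.0399 in edgeR). Nrp2, a co-receptor for semaphorins and VEGF, rose 4.59-fold and 2.05-fold (log2 difference -1.16 ± 0.24, adjusted p = 0.0493). For Rab31 and Nrp2 the vehicle libraries were again higher on the AhR-poor diet without overlap, at 7.38 to 9.05 against 5.25 to 6.81 CPM and at 13.6 to 20.2 against 6.20 to 8.86 CPM. None of the 4 held in every fit: Mtss1 passed in 5, Parm1 in 7, Rab31 in 4 and Nrp2 in 2 of the 16 fits without a library, and none passed with limma-voom (adjusted p from 0.0715 to 0.132).

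Extracellular matrix genes held the largest number of called genes of any list. Of 40 matrix and matricellular genes other than collagens, 36 had a log2 difference above 0, with a median of 1.21 beside 0.03 over all genes tested, and 5 passed at an adjusted p below 0.05 (Efemp1, Sulf1, Dcn, Lama2 and Sparc). Over all genes tested, 53.1% were above 0, and 0.311% passed in this direction. Of 43 collagen chains, 31 were above 0, with a median of 0.41 (0.70 without T106), and 3 passed (Col6a1, Col6a2 and Col5a2). Of 23 matrix metalloproteinases and their inhibitors, 20 were above 0, with a median of 0.85, and Mmp2 passed. With members at the floor set to their bound, the medians of these lists were 1.09, 0.35 and 0.74, in that order. None passed in the lower direction in these lists.

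The matrix genes that passed did so in different ways. Dcn, the small proteoglycan decorin that binds collagen fibrils, was at 5.39 to 8.92 and 24.7 to 50.4 CPM in the I3C and AhR-poor vehicle libraries, and at 0.796 to 3.65 and 90.2 to 200.2 CPM in the papain libraries. It rose 4.75-fold on the AhR-poor diet and fell 3.31-fold on the I3C diet (log2 difference 3.98 ± 0.58, adjusted p = 0.0165 in edgeR), from vehicle levels that were already apart. Col6a2 had the same pattern (log2 difference 2.94 ± 0.49). Col5a2, a chain of the fibril-starting collagen V, fell 3.52-fold on the I3C diet, and its 1.20-fold difference on the AhR-poor diet did not pass (log2 difference 2.07 ± 0.35). Mmp2, a gelatinase, fell 2.58-fold and 1.43-fold (log2 difference 0.85 ± 0.17), as Efemp1 and Col6a1 did.

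Sparc, a collagen-binding glycoprotein that was abundant here, fell on the I3C diet, and its log2 change of 0.08 on the AhR-poor diet did not pass (adjusted p = 0.609 in edgeR). It was at 168.1 to 233.9 CPM with vehicle and 109.8 to 145.9 CPM with papain on the I3C diet, and at 136.6 to 167.0 and 148.3 to 160.5 CPM on the AhR-poor diet. The log2 difference was 0.76 ± 0.14 (adjusted p = 0.0307 in edgeR). Col7a1, the anchoring fibril of the epidermal junction and among the most abundant collagens of the table, had a log2 difference of 0.06 (95% interval -0.20 to 0.32), and Col17a1, a hemidesmosomal collagen of basal keratinocytes, of -0.17 (-0.60 to 0.27). Col1a1, the main fibrillar collagen of dermis, had a difference of 2.04 (0.77 to 3.30) that did not pass after adjustment (adjusted p = 0.172), and neither did Col5a1 (2.10, adjusted p = 0.115) or Col4a1 (0.63, adjusted p = 0.501).

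Markers of several cell types other than keratinocytes had positive median differences, and those of others had medians near 0. The summed level of 18 dermal fibroblast markers was 300.3 to 528.3 CPM in the I3C vehicle and 350.5 to 514.5 CPM in the I3C papain libraries, and 429.8 to 664.3 and 863.1 to 1320 CPM in the AhR-poor vehicle and papain libraries. Of these 18 markers, 17 had a log2 difference above 0, with a median of 1.64, and 2 had 3 counts or fewer in every library of the I3C vehicle group. With members at that floor set to their bound, the median was 1.33. It was 1.25 over the 15 markers without a group at the floor, and 0.57 over the 6 with at least 10 counts in every library. A large part of the sum was Postn, at 188.2 to 399.9 CPM in the I3C vehicle and 172.1 to 332.9 CPM in the I3C papain libraries. On the AhR-poor diet Postn was at 215.1 to 356.9 CPM with vehicle and 242.8 to 368.2 CPM with papain. The defining marker Col1a1 was at 0.599 to 2.41 CPM over all 8 I3C libraries, and at 20.3 to 32.7 CPM in the vehicle and 44.1 to 115.4 CPM in the papain libraries of the AhR-poor diet.

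The endothelial markers summed to 4.80 to 7.725 CPM with vehicle and 8.455 to 8.95 CPM with papain on the I3C diet, without overlap. On the AhR-poor diet they summed to 34.0 to 77.6 CPM with vehicle and 60.3 to 133.1 CPM with papain. The red blood cell markers summed to 20.7 to 24.2 and 22.4 to 40.0 CPM on the I3C diet, and to 90.5 to 176.9 and 293.9 to 1283 CPM on the AhR-poor diet. The monocyte and macrophage markers summed to 7.75 to 9.995 and 8.06 to 27.3 CPM on the I3C diet, and to 23.1 to 35.4 and 110.8 to 551.5 CPM on the AhR-poor diet. Neutrophil markers summed to 55.8 to 78.97 and 67.1 to 111.95 CPM on the I3C diet, and to 87.5 to 106.1 and 220.7 to 1431 CPM on the AhR-poor diet. In the fibroblast, red blood cell, monocyte and neutrophil lists the AhR-poor papain libraries lay above the other 12, with T112 the lowest of them, and in the endothelial list they overlapped the AhR-poor vehicle group. T106 was the highest I3C papain library in the monocyte and red blood cell lists. Of the 18 neutrophil markers, 5 had no count in the I3C vehicle group and 13 were at or under 3 counts in each of its libraries, so that their median of 1.68 (2.88 without T106) is no measured ratio, and over the 5 markers with none of the groups at that floor it was -0.21. Pericyte and smooth muscle markers had a median of 0.15 (5 of 10 genes above 0) and summed to 219.2 to 301.4 and 310.9 to 374 CPM on the I3C diet, and to 218 to 301.4 and 208.5 to 248.4 CPM on the AhR-poor diet. Eccrine gland markers had a median of -0.10 (4 of 10 above 0) and melanocyte markers of 0.14 (5 of 9), and these 3 medians were on either side of 0 depending on the library left out. Of the remaining lists, adipocyte markers had a median of 0.83 (1.88 without T106), skeletal muscle markers of 1.23 (0.49 without T104), Schwann cell markers of 0.41 (0.14 without T104) and red blood cell markers of 0.80 (from 0.23 without T105 to 2.32 without T106). At the floor in the I3C papain group were 2 of 7 adipocyte, 3 of 10 skeletal muscle and 3 of 9 Schwann cell markers. With such members at their bound, the medians of these lists were 0.81, 1.07 and 0.27. Schwann cell markers summed to 93.5 to 107.6 CPM with vehicle and 95.9 to 100.4 CPM with papain on the AhR-poor diet. The part of all these markers in the differences of the matrix, chemokine and other called genes was not tested.

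Keratinocyte and Langerhans cell markers had medians near or below 0. Basal keratinocyte markers had a median log2 difference of 0.01 (5 of 9 above 0), Langerhans cell markers of 0.03 (6 of 11) and suprabasal keratinocyte markers of -0.29 (2 of 10), with 0 of these 30 genes called. Without a library, the basal median ranged from -0.11 to 0.08, the Langerhans median from -0.22 to 0.28 and the suprabasal median from -0.45 (without T112) to -0.14 (without T104). Langerhans cell markers summed to 392 to 913 CPM on the I3C diet and 1028 to 1345 CPM on the AhR-poor diet, a difference present with either treatment. The 12 T cell markers were all above 0, with a median of 0.53 (0.32 without T105, 1.02 without T106) and 0 called. Mast cell markers were at the floor in at least 8 of 10 genes in each I3C group, so their median of 2.90 is no measured ratio.

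**Figure D4:**
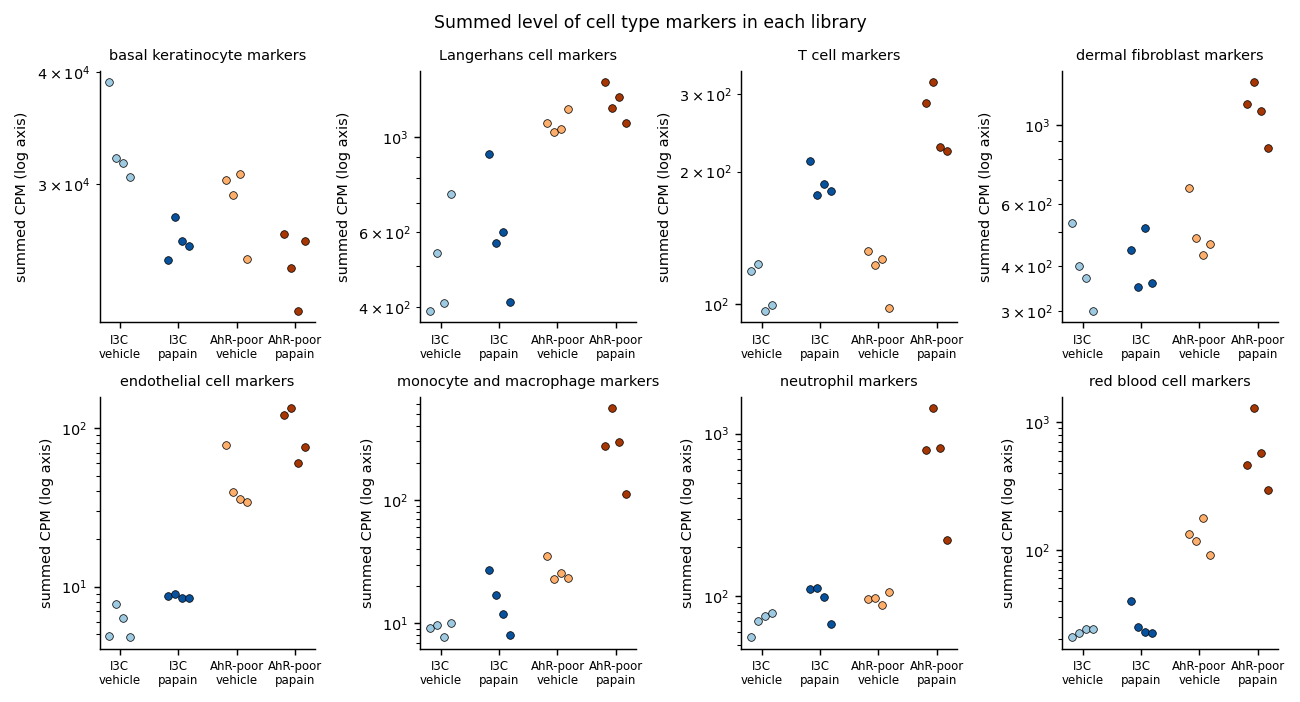
Summed CPM of the markers of 8 cell types in each library (points, log axis), by diet and treatment. Fibroblast, monocyte and macrophage, neutrophil and red blood cell markers are highest in the AhR-poor papain libraries, whereas basal keratinocyte markers overlap between the diets and Langerhans cell markers are apart between the diets with both treatments.

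Of the TGF-beta ligands, activators and receptors, 2 of 18 passed, Ltbp4 and Tgfb1, against 0.311% of all genes tested in that direction and 0.0181% in the other. The median of the list was -0.01, or 0.01 with RLE size factors, and ranged from -0.12 (without T108) to 0.12 (without T111). Tgfb1, the ligand, was at 38.1 to 52.2 CPM in the I3C vehicle and 26.4 to 30.7 CPM in the I3C papain libraries, and at 34.0 to 47.2 and 41.8 to 53.2 CPM on the AhR-poor diet. It fell 1.44-fold on the I3C diet and its 1.20-fold difference on the AhR-poor diet did not pass (log2 difference 0.79 ± 0.16, adjusted p = 0.0409 in edgeR). Leaving out a single library ended this call in 11 of 16 cases, and raised its adjusted p to 0.115 without T101. Furin, the protease that matures TGF-beta, had a difference of 0.16 (95% interval -0.11 to 0.43). Itgb8, a subunit of the integrin that releases active TGF-beta, was at -0.04 (-0.66 to 0.58, adjusted p = 0.975), with overlapping vehicle and papain libraries on each diet. The mediators and target genes of the pathway had a median of 0.25 (0.06 without T108), with 16 of 19 above 0 and 0 called, and Tgfbi, a secreted target, was at 0.05 (-0.26 to 0.36).

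Among inflammatory genes, log2 differences were mostly above 0 and few passed the test. Of 34 chemokines tested, 32 were above 0 (53.1% over all genes). Their median was 2.05, or 1.16 with members at the floor set to their bound. These counts include members at the floor. Cxcl5, for instance, was at 9.16 to 30.4 CPM in the AhR-poor papain libraries and at most 0.146 CPM elsewhere, so the count filter fixed its sign. The median was 0.98 over the 23 members without a group at the floor, and 0.93 over the 16 with at least 10 counts in every library. Only 1 chemokine passed, against 0.311% of all genes. This was Cxcl12, which binds Cxcr4 and is made by stromal cells: it was at 6.20 to 12.7 and 3.72 to 7.14 CPM in the I3C vehicle and papain libraries, and at 7.83 to 15.6 and 21.1 to 26.3 CPM in the AhR-poor ones (log2 difference 1.94 ± 0.37, adjusted p = 0.0398 in edgeR). Its AhR-poor papain libraries lay above the other 12. Without T101 its adjusted p was 0.102.

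Ccl2, which attracts monocytes, had a log2 difference of 3.16 ± 0.69 and did not pass (adjusted p = 0.0758 in edgeR). It was at 5.33 to 23.6 and 4.58 to 10.9 CPM in the I3C vehicle and papain libraries, and at 4.05 to 11.0 and 18.9 to 50.8 CPM in the AhR-poor ones, so the wide I3C vehicle group overlapped the AhR-poor papain group. Cxcl1, a neutrophil attractant, had a difference of 1.05 ± 0.30 (adjusted p = 0.166), with 92.5 to 152.8 CPM in the AhR-poor papain libraries and 37.2 to 77.7 CPM in the others. The cytokine Il1b had a difference of 2.47 ± 1.41 (adjusted p = 0.474). Its AhR-poor papain libraries ranged from 59.7 to 430.8 CPM, and its I3C papain libraries from 2.01 to 15.0 CPM, the highest of them T106. Il1b rose on both diets, and the I3C vehicle libraries were at 0.144 to 0.720 CPM. Ccl3 did not pass either (2.78 ± 1.35, adjusted p = 0.389), and Cxcl3 and Cxcl5 were at the floor in I3C or vehicle groups and give no ratio.

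The leukocyte integrins Itgb2 and Itgb7 had differences of 2.12 ± 0.56 (adjusted p = 0.134 in edgeR) and 1.32 ± 0.42 (adjusted p = 0.201). Interleukins and alarmins had a median of 0.96 (31 of 35 above 0) with 0 called. This median was 0.90 with members at the floor set to their bound, and 0.83 over the 28 members without a group at the floor. Over the 19 members with at least 10 counts in every library it was 0.43. Interferon-stimulated genes had a median of 0.80 (0.46 without T105), with 24 of 30 above 0 and 0 called, but their most abundant members were near 0, with Irf9 at -0.09 (95% interval -0.43 to 0.24) and Stat2 at -0.32 (-0.83 to 0.18). In the oncostatin M and interleukin-6 pathway 1 of 22 genes passed, the transcription factor Cebpb. It fell 1.39-fold on the I3C diet, and its 1.21-fold difference on the AhR-poor diet did not pass (log2 difference 0.75 ± 0.15, adjusted p = 0.0409), while Stat3, the main signal carrier of the pathway, was at -0.11 (-0.38 to 0.15). Cebpb shares 20.7% of its exonic bases with Tmem189 on the opposite strand.

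AhR target genes did not pass the test. Of 14 tested, 10 were above 0, with a median of 0.20 and 0 called. Cyp1a1, the classical target, had a log2 difference of 3.08 ± 0.68 (adjusted p = 0.0650 in edgeR), from group means of 1.49 and 0.235 CPM with vehicle and papain on the I3C diet and 1.22 and 1.67 CPM on the AhR-poor diet. It lies outside the rule for named genes and was chosen after its values were seen. Aldh3a1, an aldehyde dehydrogenase that AhR induces, fell on both diets, with a difference of 0.87 (0.38 to 1.35, adjusted p = 0.123), and Tiparp, an early AhR target, was at 0.15 (-0.40 to 0.70). The receptor complex had a median of 0.10 (from 0.03 without T108 to 0.16 without T102), with 0 of 6 called.

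Several lists of keratinocyte and stress genes had medians on 1 side of 0 with few or no calls. Of 26 immediate early genes 25 were above 0 (median 0.39, from 0.16 without T108 to 0.59 without T100), of 22 cell cycle genes 21 (median 0.27, or 0.17 without T103), and of 17 glucocorticoid-responsive genes 16 (median 0.50), with Glul called in the last. Fos, at 3105 to 5825 CPM in group means, had a difference of 0.20 (95% interval -0.17 to 0.58), and Mki67, a marker of dividing cells, of 0.12 (-0.30 to 0.54). Genes of cholesterol and fatty acid synthesis were the reverse: 18 of 20 were below 0, with a median of -0.51 and 0 called, while the most abundant, Scd1, was at 0.23 (-0.37 to 0.83). Hmgcs1, which commits carbon to cholesterol, was at -0.20 (-0.42 to 0.02).

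Stress keratins and EGFR ligands had a median of -0.31 (7 of 21 above 0), barrier genes of -0.21 (10 of 34), and hypoxia and glycolysis genes of -0.18 (5 of 20), each with 0 called. Leaving out a library moved these medians to between -0.44 and -0.15 (without T113), between -0.40 (without T110) and -0.07 (without T106), and between -0.25 and -0.03 (without T113). Krt16, a keratin of injured and hyperproliferative epidermis, was at 158.5 to 183.8 CPM with vehicle and 2499 to 3564 CPM with papain in group means, and its difference was -0.30 (95% interval -1.13 to 0.53). Krt10, the main keratin of the upper layers, was at -0.39 (-0.96 to 0.17). Of the pathway lists, those of cholesterol and fatty acid synthesis, stress keratins and, barely, barrier genes had a median under the lower quartile of all genes tested. No list was tested as such.

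**Figure D5:**
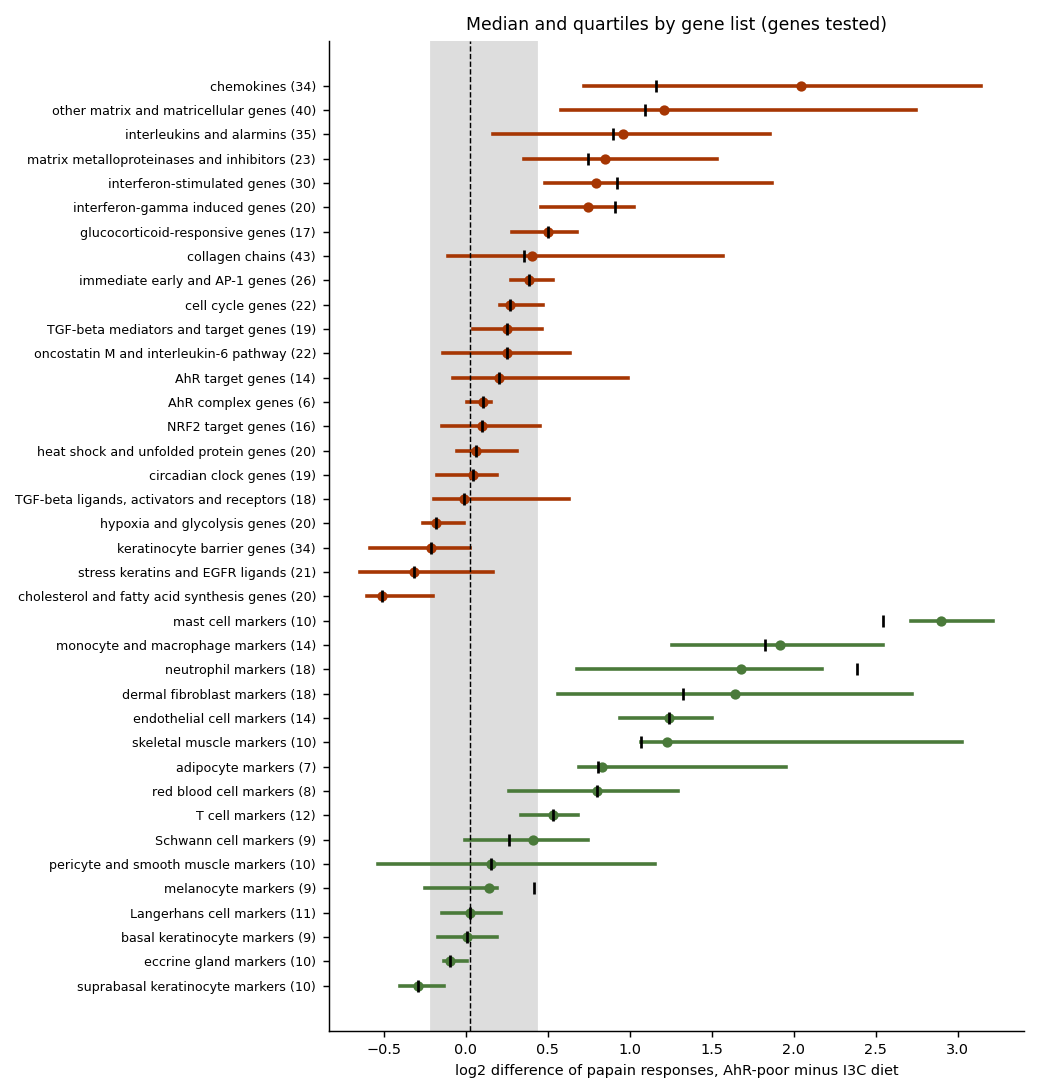
Median (points) and quartiles (lines) of the log2 difference of papain responses in 22 pathway lists (red) and 16 cell type lists (green), with the number of genes tested in brackets; black ticks give the median with members at the floor set to their bound, and the grey band and dashed line the quartiles and median of all 22155 genes. The lines of chemokines, matrix genes other than collagens and the interferon lists lie to the right of the band. So do those of the mast cell, monocyte, neutrophil, fibroblast, endothelial, adipocyte and skeletal muscle markers. The mast cell and neutrophil medians are no measured ratio, as most of these markers were at the floor in the I3C vehicle group. The median of cholesterol and fatty acid synthesis genes lies furthest to the left of the band.

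Only 14 of the 73 called genes belonged to a pathway list and 1 to a cell type list, and 59 belonged to none. Some of these 59 are described here, chosen after their values were seen. Aldh1a3, which makes retinoic acid, rose by 3.39 (log2) in AhR-poor mice, from 0.954 to 1.35 CPM to 6.31 to 20.5 CPM, and was at 1.08 to 1.67 and 1.07 to 2.63 CPM on the I3C diet (log2 difference 3.03, adjusted p = 0.0128 in edgeR). Adh7, an alcohol dehydrogenase that oxidises retinol, fell on both diets and less on the AhR-poor diet (log2 difference 1.17, adjusted p = 0.0440). Its papain libraries were at 27.9 to 36.4 CPM on the I3C diet and 48.0 to 62.7 CPM on the AhR-poor diet, without overlap.

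Some called genes are known from leukocytes or vessels. The largest log2 difference among the called genes was that of Trpm2, a calcium channel found in neutrophils and other leukocytes, at 4.97. It was at 0.114 to 0.488 CPM over the other 12 libraries and at 1.12 to 11.8 CPM in the AhR-poor papain libraries, the lowest of them T112. Fcgr3, an Fc receptor of myeloid cells, fell from 2.58 to 5.06 CPM to 0.545 to 1.71 CPM on the I3C diet and rose from 2.72 to 4.42 CPM to 4.54 to 20.9 CPM on the AhR-poor diet (log2 difference 3.60). Nos3, the nitric oxide synthase of endothelium, rose on the AhR-poor diet from 1.16 to 1.93 CPM to 3.59 to 10.7 CPM and stayed at 0.285 to 0.653 CPM in the I3C libraries (log2 difference 2.42). For Trpm2 and Nos3 the change with papain on the I3C diet did not pass, and Nos3 shares 25.2% of its exonic bases with Gm15587 on the opposite strand.

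Others are widely expressed. Ftl1, the light chain of the iron store ferritin, rose on the AhR-poor diet and fell on the I3C diet (log2 difference 1.36 ± 0.24, adjusted p = 0.0282 in edgeR), and 26.5% of its exonic bases are shared with Gm10252 on the opposite strand. Mef2c, a transcription factor of muscle, vessels and leukocytes, fell on both diets, to 0.714 to 1.41 CPM with papain on the I3C diet and 1.99 to 3.00 CPM on the AhR-poor diet (log2 difference 1.55). In Plcb1, C1qtnf7 and 9230111E07Rik every I3C papain library had 3 counts or fewer, so that their differences are bounds, of at least 3.50, 2.20 and 2.63 on the log2 scale.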

How the data were processed

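Epidermal cells of 16 mice, 1 library each, were sequenced by the authors (TruSeq Stranded mRNA, paired-end, NovaSeq), aligned with STAR to mm10 and deposited as raw counts per gene without normalization. The counting tool, annotation release, strand setting and software versions were not given in the sources used here. Of 50600 identifiers, 50376 had a symbol in GENCODE M21 (GRCm38), which also gave positions and exonic overlaps.

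Groups came from the sample titles. Genes reaching a sum of 10 counts over all libraries were fitted in edgeR 4.0.16 (R 4.3.3) with TMM factors, a mean for each of the 4 groups and the robust quasi-likelihood test, after the study's minimum count and thresholds. Interaction and papain contrasts came from that fit, and their 95% intervals from its standard errors. A group with 3 counts or fewer in each library is at the floor, equal to 0.0569 to 0.130 CPM by library. This limit covers counting error only. Log2 differences against it are bounds. The fit was also run on simulated counts with a known interaction, and as the outcome is not given here it lends no support to the calls.

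The members and lists were chosen with earlier results of these data known. Named genes are those past the study's thresholds, those at an adjusted p below 0.05 with a mean of at least 1 CPM (10 of smallest p each way), up to 3 called members a list, the 2 most abundant members of each pathway list, of which not all are printed, and 12 genes the study names. The lists cover 22 pathways and 16 cell types, written by hand. Alternatives were RLE factors, library size only, other count filters, a non-robust fit, DESeq2 1.42.0, limma-voom (limma 3.58.1), other thresholds and leaving out each library.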

Additional observations from a re-analysis of the deposited data

Results flagged for a closer look

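In 4 of 56 groups of 4 libraries examined among the named genes, a library stood apart from the other 3 by Dixon's criterion, where chance alone gives about 1 in 20. Glul was at 52.78 CPM in the I3C papain library T106 and at 35.4 to 36.6 CPM in the other 3. Akap12 was at 0.8902 CPM in the I3C vehicle library T108 and at 0.663 to 0.690 CPM in the others. Cygb was at 4.223 CPM in the AhR-poor vehicle library T100 and at 2.18 to 2.38 CPM in the others, and Nrp2 at 49.26 CPM in the I3C papain library T113 and at 29.5 to 32.8 CPM in the others.

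The papain responses of the diets differed by the interaction test at the study's thresholds in 4 genes, with log2 differences of 3.41 for Sulf1, 3.01 for Akap12, 1.65 for Efemp1 and 1.37 for Glul. Without T106, the high I3C papain library of Glul, its log2 difference was 1.55.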

How the results depend on the processing

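The signs of the 73 genes at an adjusted p below 0.05 held in every alternative that tested them, whereas the number of calls did not hold. As these genes were selected on the same libraries, their kept signs are not further support. At the study's thresholds (4 higher and 0 lower), the higher calls were 10 with library size only, 7 with every gene of at least 1 count, 8 with a non-robust fit, 2 with limma-voom, 1 against a minimum difference of 1 at an adjusted p below 0.05, and 60, with 3 lower, at an adjusted p below 0.05 and a log2 difference beyond 1. DESeq2 gave 202 and 5, and 457 and 72 at an adjusted p below 0.05, where limma-voom gave 5 and 0. Without each library in turn, the study's thresholds gave 2 to 95 higher and 0 to 1 lower, and an adjusted p below 0.05 gave 10 to 350 higher and 0 to 72 lower. Leaving out both T106 and T112, whose codes lie outside the run of their groups, an alternative chosen after seeing the data, gave 268 and 2, and 621 and 86, and all 73 genes were among them. The causes of these shifts were not tested.

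Of the 73 genes, 10 passed an adjusted p below 0.05 in all 16 fits without a library. Glul lost the study's thresholds without T108, T109, T111, T113, T114, T115, T101, T102, T104, T105 or T107, and Akap12 without T108, T114, T115, T101, T102 or T104. No paired analysis was possible because the library codes are not shared between groups. Depth limits genes below 1 CPM, where the standard errors are largest.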
